A study of Mus musculus with 6 samples.

Results

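The genes described here are antiviral interferon-stimulated genes, read in the 3 sham-operated mouse hearts of a study of the heart in chronic kidney disease. Of 31 genes listed by symbol, 29 had a row among the 17447 genes of the count table. Mx1 and Mx2 had none under those symbols and are not analysed here. The list was drawn up from these libraries because the genes were jointly higher in 1 sham heart, sham 3. The ratios of sham 3 to the other hearts are therefore what chose the genes, and they are given below as a description without a test. The 29 genes fall into 4 roles, with 19 effectors, 4 sensors of foreign nucleic acid, 4 transcription factors of the STAT and IRF families and 2 chemokines.

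The series holds bulk RNA sequencing of heart tissue from wild-type mice, all labelled as the same batch, in a sham group of 3 and a chronic kidney disease group of 3. Kidney disease was produced surgically by subtotal nephrectomy in 2 operations, first on the poles of the left kidney and then, after an interval, on the whole right kidney. Sham mice were anaesthetised and opened in the same way, and their kidneys were exposed but left in place. Strain, age, sex and the time of tissue collection were not given in the sources used here, nor was it stated beyond the replicate numbers that each heart came from a separate animal. The sham libraries held 10480788, 10474487 and 12669724 counts over all genes, and the disease libraries 11717426 to 12222637.

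Type I interferons signal through the receptor made of Ifnar1 and Ifnar2 and the kinases Jak1 and Tyk2, which lead to the assembly of the complex ISGF3, of which Stat2 and Irf9 are parts. This complex binds the interferon-stimulated response element (ISRE) in the promoters of its target genes. Interferon gamma acts through its own receptor and the gamma-activated sequence (GAS). The target genes encode proteins that block viral RNA and budding, sense nucleic acid, amplify the interferon signal or attract lymphocytes. In heart muscle, they are known from viral myocarditis and from sterile injury.

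The gene labels of the table were checked first. Spearman's rho over the rows of the table was 0.982 to 0.985 between sham hearts and 0.984 to 0.987 between disease columns, but -0.0586 to -0.0528 between a sham heart and a disease column. Myh6, the main myosin heavy chain of the adult mouse ventricle, had 362529, 443278 and 474768 counts in sham hearts 1, 2 and 3, and 0, 0 and 1 in the disease columns. The median percentile of 14 ventricular cardiomyocyte markers was 99.9 in every sham heart and 38.1, 40.2 and 39.1 in the disease columns. The sham columns thus carried the defining markers of the labelled tissue, whereas the row labels of the disease columns did not match their values. For this reason no value of a listed gene is taken from the disease columns, and no comparison of sham with kidney disease is made. Shams are compared one by one, without averaging sham 1 and sham 2 into a group.

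Promoters are shown before the values because the ISRE is the sequence through which ISGF3 is known to act. Promoter sequences were found in RefSeq (assembly GRCm38.p6) for 22 of the 29 genes, each running from 250 bases before to 50 bases after the annotated start. The submitters' processing notes name mm9, so the coordinates here are those of the RefSeq table and not of the study's alignment. The ISRE letters searched were TTTC, any 2 bases and TTTC again, on either strand (on the other strand GAAA, any 2 bases and GAAA), and overlapping matches were each counted. All stretches below lie upstream of the annotated start and outside the transcribed gene, are written 5′ to 3′ along the gene's own strand, and have the ISRE letters in capitals.

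Isg15, Ifit1, Ifit3 and Ifit3b come first, because they were among the genes with the widest ratios between hearts and each held more than 1 match. The Isg15 stretch (chr4:156200850-156200921, minus strand, bases -103 to -32 from the start) held 3 overlapping matches. The Ifit1 stretch (chr19:34640760-34640838, plus strand) held 2 separate matches. The Ifit3 stretch (chr19:34583348-34583441, plus strand) and the Ifit3b stretch (chr19:34607744-34607837, plus strand) were identical over all 94 bases, although they lay at bases -181 to -88 and -213 to -120 from their starts.
Isg15: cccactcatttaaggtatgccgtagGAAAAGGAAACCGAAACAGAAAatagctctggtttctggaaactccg
Ifit1: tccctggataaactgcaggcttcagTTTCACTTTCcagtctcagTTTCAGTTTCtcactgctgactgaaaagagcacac
Ifit3: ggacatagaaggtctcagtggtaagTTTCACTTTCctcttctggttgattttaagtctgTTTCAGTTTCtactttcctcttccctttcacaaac
Ifit3b: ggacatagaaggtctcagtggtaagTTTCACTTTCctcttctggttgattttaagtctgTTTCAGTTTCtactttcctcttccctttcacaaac

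Bst2 and Oas1a are shown as further effectors, Stat2 as a transcription factor and Cxcl10 as a chemokine. The stretches of Bst2 (chr8:71537562-71537627, minus strand) and Oas1a (chr5:120907526-120907570, minus strand) each held 2 overlapping matches. Those of Stat2 (chr10:128270251-128270310, plus strand) and Cxcl10 (chr5:92349068-92349127, minus strand) each held 1.
Bst2: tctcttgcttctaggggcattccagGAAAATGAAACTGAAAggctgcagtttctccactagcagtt
Oas1a: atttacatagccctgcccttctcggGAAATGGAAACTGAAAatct
Stat2: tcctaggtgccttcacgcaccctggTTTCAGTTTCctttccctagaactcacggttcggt
Cxcl10: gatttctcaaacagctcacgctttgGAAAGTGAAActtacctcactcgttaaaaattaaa

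ISRE letters were present in 12 of the 22 promoters (54.5%), against 3.99% of the 27025 genes with a promoter in the table. By role they were in 8 of 14 effectors, 2 of 2 sensors, 1 of 4 STAT and IRF genes and 1 of 2 chemokines. The 4 members not printed that held them were Rsad2, Trim30a, Ddx58 and Ifih1, and in Ddx58 and Ifih1 the match lay just after the start. The GAS letters TTCNNNGAA, which read the same on both strands, were in 5 of 22 (22.7%), namely Bst2, Samhd1, Oas1a, Irf1 and Ifit2, against 9.55% of all genes. A match is a run of letters and not a shown binding site, and a promoter without a match lacks only these letters in this window.

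Levels are given as CPM, each heart's count divided by its total over all rows and scaled to a total of 1000000 counts. Intervals in square brackets are 95% intervals for counting error only, and they do not include the spread between animals. All 29 genes were highest in sham 3, as were 42% of the 12616 genes with a mean of at least 10 counts per sham heart. In 28 of the 29, sham 3 was at least 2-fold above each of the other hearts, which held for 1.96% of the 12616. At 1.5-fold it was 29 genes (4.98% of all tested) and at 4-fold 13 (0.428%). Since the list was chosen on this pattern, nothing is read from these counts. Over all genes tested, 0.341% were at least 2-fold lower in sham 3 than in each other heart. Sham 1 was at least 2-fold above each other heart in 1.22%, and sham 2 in 0.182%. In bulk tissue a higher level can come from more cells of a type or from more RNA per cell, and these cannot be told apart.

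**Figure D1:**
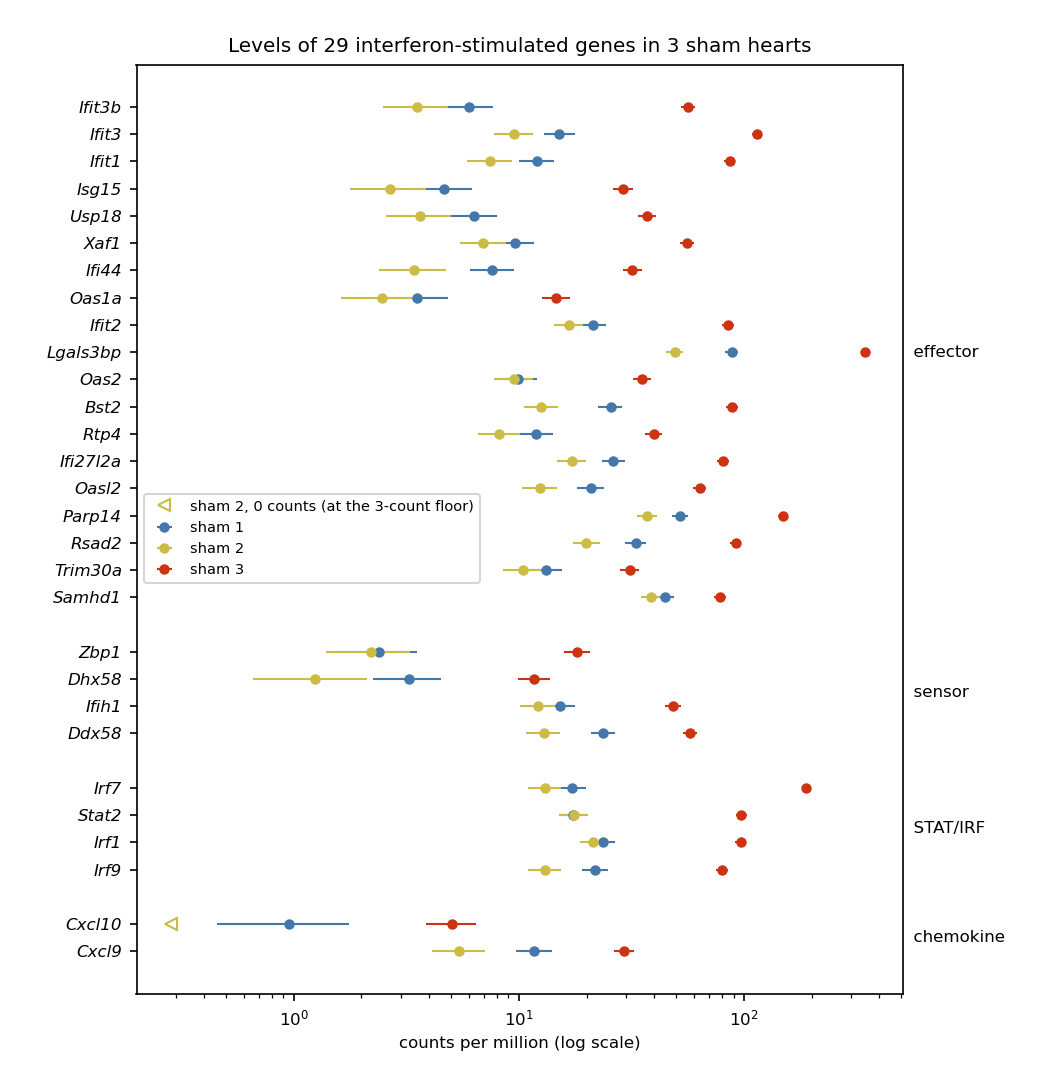
CPM (log axis) of each of the 29 genes in the 3 sham hearts, grouped by role, with 95% exact Poisson intervals as bars. Every gene was highest in sham 3, and the open triangle marks the 0 counts of Cxcl10 in sham 2, drawn at the level of 3 counts.

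Among the effectors, the Ifit genes encode tetratricopeptide proteins, of which Ifit1 binds RNA that lacks the host's cap methylation and Ifit3 binds other family members. Ifit1 had 12.0, 7.45 and 86.5 CPM in sham hearts 1, 2 and 3. Ifit3 had 15.2, 9.55 and 114 CPM, and the level in sham 3 was 7.53-fold [6.39 to 8.93] that in sham 1 and 12.0-fold [9.76 to 14.8] that in sham 2. Ifit3b, its close copy, had 6.01, 3.53 and 56.4 CPM, with a ratio of 9.39 [7.25 to 12.4] to sham 1. Ifit2 had 21.5, 16.7 and 85.3 CPM, with smaller ratios of 3.97 and 5.11. In each of the 4 genes sham 3 stood far above both others, and the median ratio over the 4 was 7.36 to sham 1 and 11.8 to sham 2. Ifit3 and Ifit3b are hard to separate by short reads, since 51.2% of the distinct 50-base words of the Ifit3 transcripts also occur in Ifit3b. Their split of the reads is uncertain.

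Isg15, a ubiquitin-like protein that is coupled to other proteins, had 4.68, 2.67 and 29.1 CPM. Usp18, the protease that removes Isg15 and also damps the type I receptor, had 6.30, 3.63 and 37.3 CPM. The ratios of sham 3 to sham 1 were 6.21 [4.60 to 8.55] for Isg15 and 5.92 [4.57 to 7.78] for Usp18, so the modifier and its protease differed by less than the counting error. Against sham 2 the ratios were 10.9 and 10.3.

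The oligoadenylate synthetases make the second messenger that activates RNase L against viral RNA. Oas1a had 3.53, 2.48 and 14.7 CPM in the 3 hearts and Oas2 had 9.92, 9.55 and 35.4. Oasl2, a family member named for its similarity to the synthetases, had 20.9, 12.4 and 63.6 CPM. Their median ratios were 3.56 to sham 1 and 5.13 to sham 2, below those of the Ifit genes. Oas1a shares 57.6% of its 50-base words with Oas1g, so its counts are uncertain.

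Lgals3bp, a secreted glycoprotein that binds galectins, supplied more counts than any other gene of the list. It had 926, 517 and 4385 counts, or 88.4, 49.4 and 346 CPM (mean 161 ± 161, SD, n = 3). It made up 16.1% of all member counts in sham 3, followed by Irf7 with 8.78% and Parp14 with 6.93%. Parp14, a mono-ADP-ribosyltransferase, had 52.2, 37.0 and 149 CPM.

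Several effectors act on the viral envelope, replication or the cell's nucleotide pool. Bst2, or tetherin, which holds budding virions at the cell surface, had 25.6, 12.6 and 88.5 CPM. Rsad2, or viperin, an enzyme that makes a chain-terminating nucleotide, had 347, 209 and 1165 counts. Its ratios were 2.78 [2.46 to 3.14] to sham 1 and 4.61 [3.97 to 5.37] to sham 2. Samhd1, which hydrolyses deoxynucleotides, had 44.5, 38.6 and 78.6 CPM and was the 1 gene under 2-fold, at 1.77 [1.58 to 1.98] to sham 1. Trim30a, a TRIM family protein, was the next lowest and lay above 2-fold, with 13.2, 10.4 and 31.1 CPM and a ratio of 2.36 to sham 1.

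Of the remaining effectors, Xaf1, which binds the apoptosis inhibitor XIAP, had the widest ratio to sham 1, with 9.64, 6.97 and 55.9 CPM. Ifi44 had 7.63, 3.44 and 32.0 CPM, Rtp4 had 11.9, 8.21 and 39.8, and Ifi27l2a had 26.3, 17.3 and 80.7. The sham 3 level was 5.80-fold that in sham 1 for Xaf1, 4.19-fold for Ifi44, 3.34-fold for Rtp4 and 3.07-fold for Ifi27l2a.

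The sensors showed unequal differences. Zbp1, which binds left-handed double-stranded nucleic acid and can start necroptosis, had 25, 23 and 231 counts, or 2.39, 2.20 and 18.2 CPM. Its ratio was 7.64 [5.05 to 12.1] to sham 1. Ddx58, also called RIG-I, had 23.8, 12.9 and 57.8 CPM and a ratio of 2.43 [2.10 to 2.82] to sham 1, and the intervals of these 2 sensors did not overlap. Against sham 2 they did, with 8.30 [5.40 to 13.4] for Zbp1 and 4.48 [3.73 to 5.43] for Ddx58. Ifih1, or MDA5, had 15.3, 12.1 and 48.4 CPM. Dhx58, or LGP2, a regulator of both, had 34, 13 and 148 counts and the highest ratio of the sensors to sham 2, 9.41 [5.34 to 18.1].

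Among the transcription factors, Irf7, which drives the interferon genes themselves, had 17.2, 13.1 and 189 CPM (mean 73.0 ± 100.2, SD, n = 3). Its ratios of 10.98 [9.44 to 12.9] to sham 1 and 14.4 [12.1 to 17.3] to sham 2 placed it seventh of all 12616 genes by the smaller ratio, higher than any other gene of the list. Stat2 and Irf9, which act in ISGF3, had 17.5, 17.6 and 97.5 CPM and 21.9, 13.1 and 79.8 CPM. Stat2 was at the same level in sham 1 and sham 2 within counting error, with a ratio of 0.994 [0.806 to 1.23] between them. Irf1, which is induced early by interferon gamma, had 23.6, 21.5 and 96.9 CPM, with ratios of 4.11 and 4.51.

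The chemokines Cxcl9 and Cxcl10 attract lymphocytes that carry the receptor Cxcr3. Cxcl9 had 11.7, 5.44 and 29.4 CPM, a ratio of 2.50 [2.04 to 3.09] to sham 1 and 5.40 [4.07 to 7.26] to sham 2. Cxcl10 had the fewest counts of the list, with 10, 0 and 64. Its level in sham 3 was 5.29-fold [2.70 to 11.6] that in sham 1. It was 17.6-fold that in sham 2 when 3 counts were taken for the 0 there. With the counting error of both hearts, the 95% interval of that ratio began at 13.9. Cxcl10 reached the minimum of 10 counts on average only through sham 3.

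**Figure D2:**
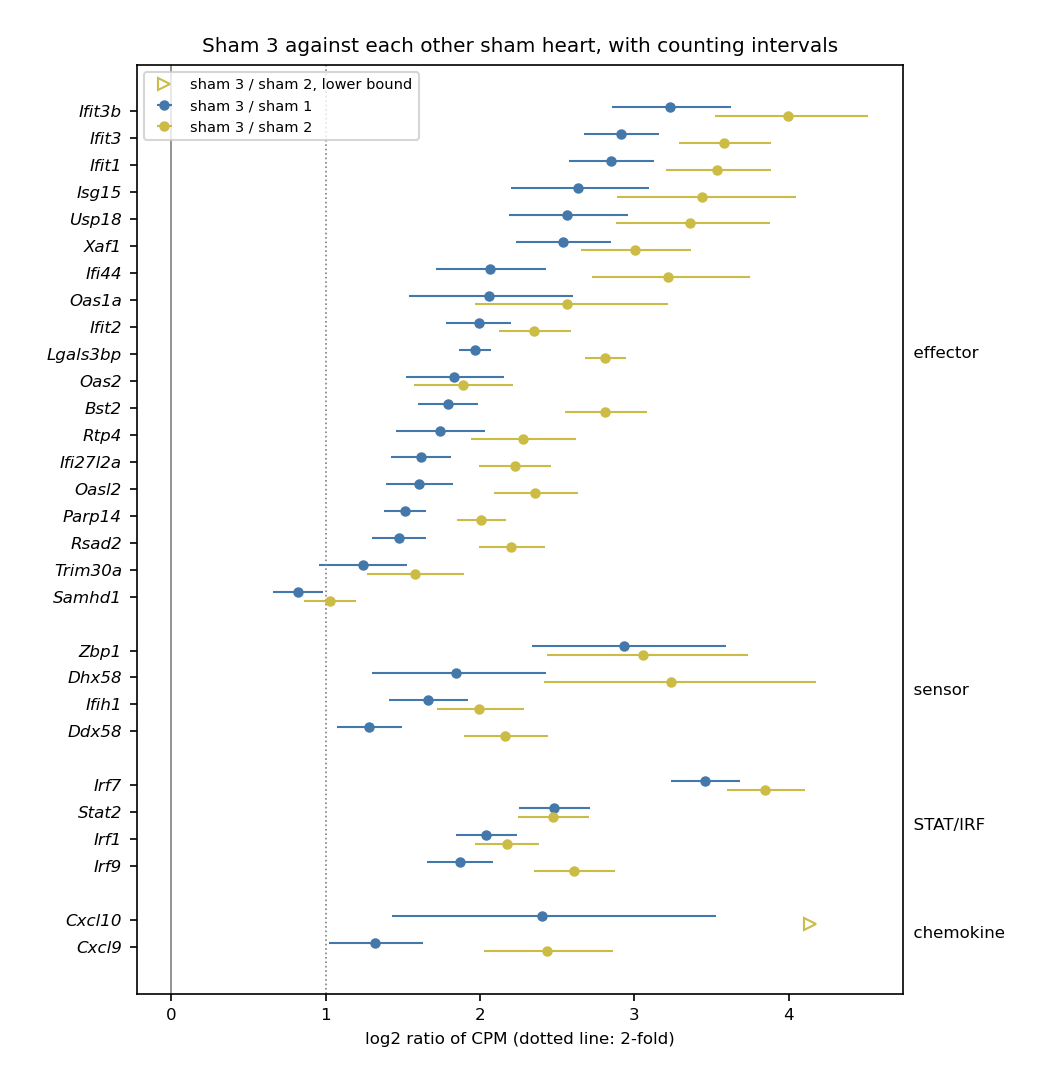
Ratios of CPM on a log2 axis, sham 3 to sham 1 and sham 3 to sham 2, for each gene, with 95% counting intervals as bars and a dotted line at 2-fold. Samhd1 (1.77 to sham 1) is the only gene with a ratio under 2-fold. The triangle is the ratio of Cxcl10 to sham 2 with 3 counts taken for its 0 there (17.6). It is labelled a lower bound, but the counting interval of that ratio began at 13.9.

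By role, the median ratio of sham 3 to sham 1 was 4.79 for the STAT and IRF genes, 3.92 for the effectors, 3.64 for the chemokines and 3.38 for the sensors. The ranges overlapped widely, from 3.65 to 10.98 in the STAT and IRF genes, 1.77 to 9.39 in the effectors, 2.43 to 7.64 in the sensors and 2.50 to 5.29 in the chemokines. The order was not the same against sham 2, where the medians were 5.82, 5.91 and 6.10 for STAT and IRF genes, effectors and sensors. The chemokines had the highest median to sham 2, with 5.40 for Cxcl9 and 17.6 for Cxcl10 with 3 counts taken in sham 2. Within the effectors the subgroups lay further apart than the roles did. The Ifit genes and the pair of Isg15 and Usp18 had medians of 7.36 and 6.06 to sham 1, and the remaining 10 effectors outside the Oas family had 3.20. Over all 29 genes the medians were 3.92 to sham 1 and 5.91 to sham 2, with 3 counts taken for Cxcl10 in sham 2. Over all 12616 genes tested they were 1.01 and 1.08.

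Scaled by the length of the longest coding transcript (GENCODE M21), the most abundant members in sham 1 were Ifi27l2a at 56.9 CPM per kilobase, Lgals3bp at 37.9 and Bst2 at 32.3. The same 3 genes led in sham 3, with 174, 149 and 112 CPM per kilobase. Irf7 had 7.68 CPM per kilobase in sham 1 and 84.3 in sham 3, where only those 3 were above it. Cxcl10 was the lowest in both hearts, at 0.705 and 3.73 CPM per kilobase.

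Together, the 29 genes took 0.0550, 0.0371 and 0.215% of all counts in sham hearts 1, 2 and 3, with exact binomial 95% intervals of 0.0536 to 0.0564%, 0.0359 to 0.0383% and 0.212 to 0.218%. The mean was 0.102 ± 0.0979% (SD, n = 3). That mean rests on sham 3, since without it the mean is 0.0460%. Without Irf7, the median ratios of the other genes were 3.78 to sham 1 and 5.73 to sham 2.

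The ratio of sham 1 to sham 2 was not what chose the genes, but both hearts entered the choice through the ratios of sham 3. The counts for this pair are therefore not independent of the choice. Here 28 of the 29 genes were higher in sham 1, which held for 62.5% of all genes tested. The exception was Stat2. A level in sham 1 at least 1.5-fold that in sham 2 was found for 16 genes (13.5% of all tested), and for 22 genes the counting interval of the ratio lay above 1 (26.7% of all tested). The 7 genes whose interval reached 1 or below were Oas1a, Oas2, Trim30a, Zbp1, Ifih1, Irf1 and Stat2. Lgals3bp had a ratio of 1.79 [1.61 to 2.00], Bst2 of 2.03 [1.64 to 2.52], Ifi44 of 2.22 [1.48 to 3.39] and Cxcl9 of 2.16 [1.56 to 3.01].

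Dhx58 had the widest measured ratio of this pair, 2.61 [1.35 to 5.40]. For Cxcl10 the ratio was 3.33 with 3 counts taken for the 0 in sham 2, and its counting interval began at 2.24. The median of sham 1 to sham 2 was 0.67 on the log2 scale over the members and 0.09 over all genes tested. Rescaling the hearts with edgeR's TMM factors or DESeq2's size factors moved all ratios of this pair by -0.0952 and -0.100 on the log2 scale, and 27 members were then higher in sham 1. The ratios of sham 3 to sham 2 moved by -0.105 and -0.117.

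**Figure D3:**
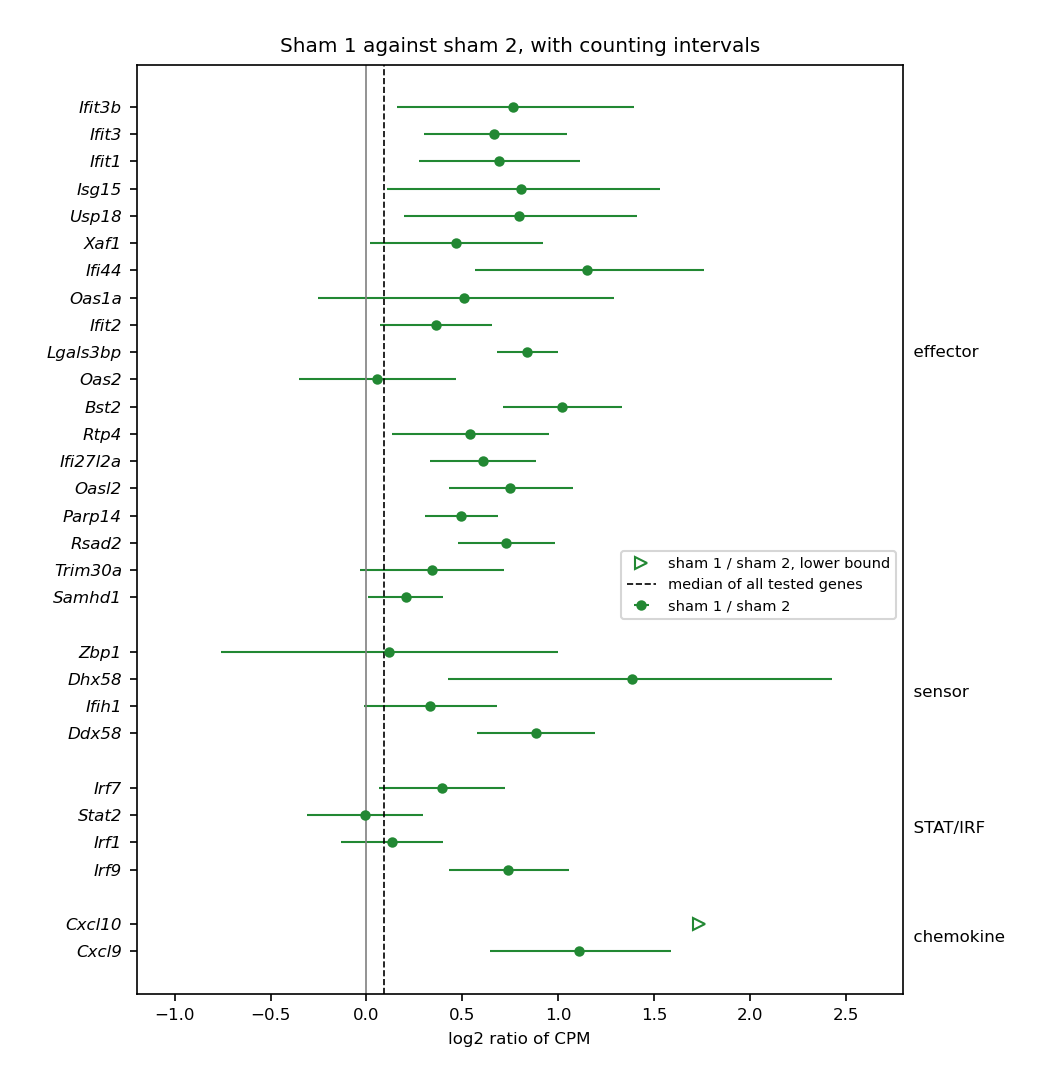
Ratio of CPM in sham 1 to sham 2 on a log2 axis for each gene, with 95% counting intervals as bars and a dashed line at the median of all tested genes (0.09). All points except Stat2 (ratio 0.994) are above 0, and the triangle is Cxcl10 with 3 counts taken for its 0 in sham 2.

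Markers of other cells also differed between sham 1 and sham 2. The median ratio of sham 1 to sham 2 was 1.83 for 10 fibroblast markers, 1.69 for 7 MHC class II genes and 0.923 for 14 ventricular markers. A list of 8 atrial cardiomyocyte markers took 0.271, 0.00847 and 0.0542% of the counts of hearts 1, 2 and 3. The part of these differences in the ratios of the interferon-stimulated genes was not tested.

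The other genes of the pathway were read from lists of known components. Of 21 interferon ligand symbols, Ifng and Ifnz had a row, and neither had a count. The level of 3 counts, taken for a count of 0, was 0.286 CPM in sham hearts 1 and 2 and 0.237 CPM in sham 3. None of 9 receptor and kinase genes was 2-fold higher in sham 3, and their median ratio was 0.971 to sham 1 and 0.08 on the log2 scale to sham 2. Ifnar1 had 386, 300 and 442 counts and Jak1 2817, 2324 and 2967. Neither gene was as much as 2-fold apart between any pair of sham hearts.

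Among the STAT and IRF factors outside the 29 genes, the lymphoid factor Irf4 had 7, 11 and 30 counts. Irf3, which is activated by phosphorylation downstream of the sensors, had 271, 225 and 336 counts. Of 18 adaptors, receptors and kinases that lie between nucleic acid and the interferon genes, none was 2-fold higher, with median ratios of 1.16 to sham 1 and 1.56 to sham 2. The adaptor Mavs had 1107, 1283 and 1285 counts. Of 12 inhibitors of interferon signalling, only Socs1 was at least 2-fold higher in sham 3, with 3, 6 and 31 counts. Socs1 is itself induced by the pathway, and it passed the minimum only through sham 3. Its 3 counts in sham 1 were at the level taken where a gene had none.

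Among 70 further interferon-stimulated genes tested, 36 were at least 2-fold higher in sham 3 and 64 were highest there. The median ratio of this list was 2.11 to sham 1 and 2.77 to sham 2. Its most abundant genes by mean CPM included Ly6e, with 2976, 2611 and 4992 counts, and Rnf213, with 727, 565 and 2883. Some stood lower in sham 3. Dtx3l, a ubiquitin ligase partner of the ADP-ribosyltransferase family, had 342, 282 and 168 counts, and Ifit1bl2, a relative of Ifit1, had 78, 57 and 43. Uba7, the enzyme that activates Isg15 for coupling, had 198, 160 and 1466 counts. These 3 genes were picked by their values. Of the 17 immunity-related and guanylate-binding GTPases tested, 17 were at least 2-fold higher in sham 3. Their median log2 ratio was 2.40 to sham 1 and 2.82 to sham 2. Gm12185 among them, with 5, 4 and 122 counts, passed the minimum only through sham 3. Iigp1, the most abundant by mean CPM, had 759, 494 and 9157 counts. Of 21 MHC class I and immunoproteasome genes, 8 were at least 2-fold higher in sham 3. Among them was the peptide transporter gene Tap1, with 220, 88 and 1069 counts.

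A list of 16 NF-kB and acute inflammation genes gave a median ratio of 0.955 to sham 1 and 1.65 to sham 2. Of these, 7 were highest in sham 3, and only Ccl7, a monocyte chemokine, was at least 2-fold higher in sham 3, with 18, 19 and 59 counts. Nfkbia, the feedback inhibitor of NF-kB, was highest in sham 1, with 928, 308 and 437 counts.

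**Figure D4:**
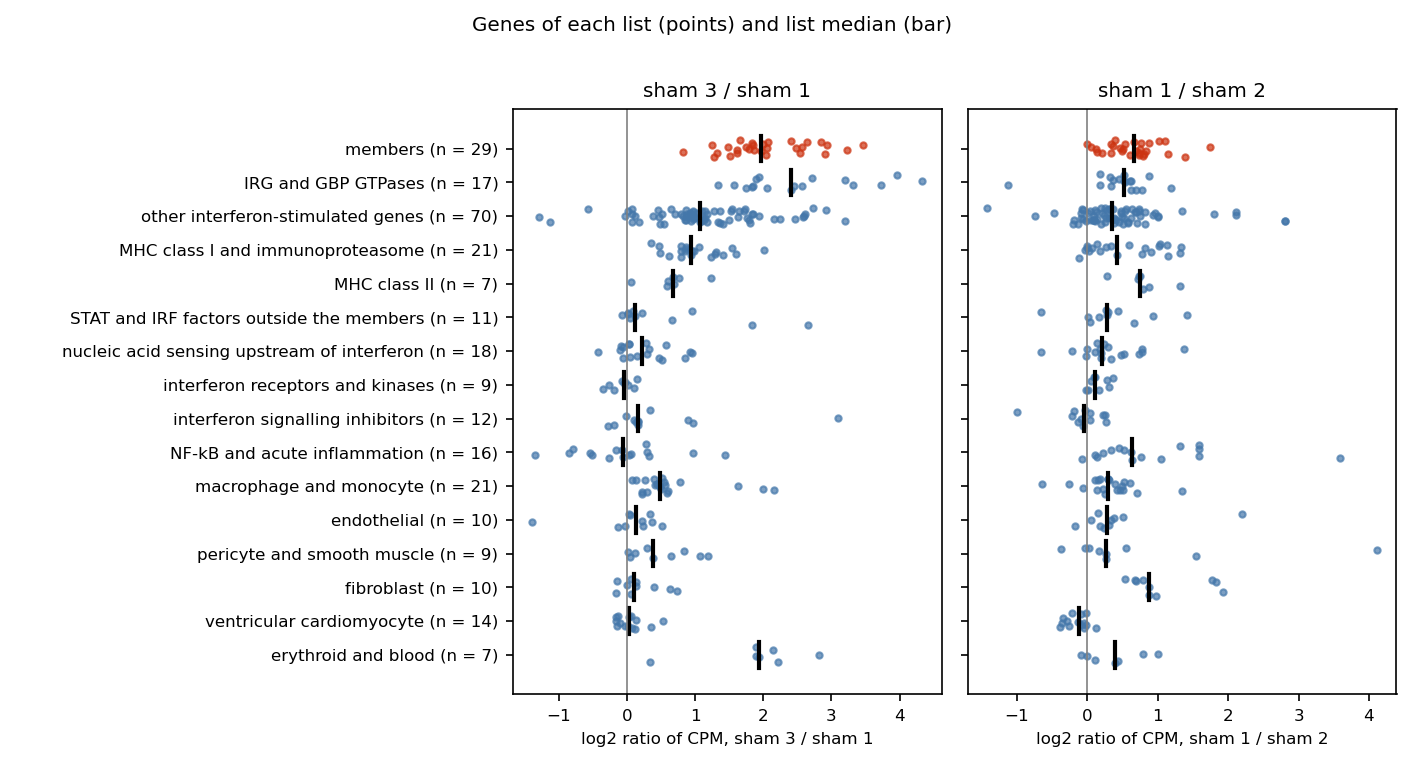
Log2 ratios of CPM for the tested genes of each list (points) with the list median (bar), sham 3 to sham 1 at left and sham 1 to sham 2 at right. At left the 29 members have a median of 1.97, and the receptors and kinases, the NF-kB list and the ventricular markers lie near 0, while at right the NF-kB list has a median ratio of 1.55.

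Markers of cells that carry or induce these genes were read beside them. All 21 tested macrophage and monocyte markers were highest in sham 3, with a median ratio of 1.40 to sham 1 and 1.66 to sham 2, below those of the interferon-stimulated genes. The list took 0.0772, 0.0605 and 0.103% of counts in the 3 hearts. The members at least 2-fold higher were the Fc receptor gene Fcgr1 (25, 30 and 120 counts), which is itself induced by interferon gamma, and the chemokine receptor gene Cx3cr1 (43, 17 and 231). Lyz2, the most abundant of them, had 2518, 1777 and 3535 counts.

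T and NK cell markers were near the detection limit. The whole list of 14 symbols summed to 69, 25 and 100 counts, 1 marker passed the minimum, and Cd3e, part of the T cell receptor complex, had 2, 1 and 3 counts. B cell markers summed to 38, 20 and 40 counts. The 2 dendritic cell markers that passed the minimum were both highest in sham 3, Zbtb46 with 193, 145 and 348 counts and Itgax with 18, 6 and 24. In the same list of 8, the plasmacytoid markers Siglech and Ccr9 had 4, 1 and 1 counts and 0 in all 3 hearts. Cd209a had 12, 2 and 8 counts and was highest in sham 1. Xcr1 had 2, 0 and 7 counts, Flt3 3, 0 and 4, and Clec9a 1, 0 and 1. Most of the list's 233, 154 and 393 counts were those of Zbtb46.

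Red cell genes also differed between the hearts. Of 7 erythroid and blood genes, 6 were at least 2-fold higher in sham 3, and the list took 0.0134, 0.0108 and 0.0517% of counts. Fibroblast and endothelial markers had median ratios of 1.07 and 1.10 to sham 1 and 1.90 and 1.38 to sham 2, and none of the 10 in either list was 2-fold higher in sham 3 than in each other heart. Of 9 pericyte and smooth muscle markers, 8 were highest in sham 3. At least 2-fold higher there were the smooth muscle genes Myh11, with 698, 479 and 1774 counts, and Cnn1, with 52, 3 and 143. Ventricular markers took 13.8, 15.4 and 13.9% of counts. The part of macrophage, dendritic cell, smooth muscle and blood content in the levels of the interferon-stimulated genes was not tested.

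Position along the genome was compared through the annotation of GRCm38.p6. On each side of a member, the nearest tested gene was taken that was neither a member nor on an interferon list. These 48 genes had a median ratio of 1.05 to sham 1 and 1.16 to sham 2. Of them 5, namely Agrn, Ifi27, Trim12a, Trim30d and Timeless, were at least 2-fold higher in sham 3, against 1.96% of all genes tested. Ifi27 lies next to the member Ifi27l2a. Trim12a and Trim30d lie next to Trim30a and belong to families known to be induced by interferon that the lists did not cover in full. Leaving out listed genes lowers such a count. With them kept, in an alternative chosen after the data were seen, there were 52 neighbours, 9 of them on an interferon list. Their medians were 1.08 and 1.23, and 9 were at least 2-fold higher, among them Cmpk2 next to Rsad2, with 136, 88 and 514 counts. By the first choice, the cluster of the 4 Ifit members is flanked by Lipa, a lysosomal lipase gene, with 413, 439 and 501 counts, and by Slc16a12, a transporter gene, with 38, 38 and 38. The neighbours of Isg15 were Perm1, a muscle gene with 5490, 6328 and 6617 counts, and Agrn, the gene of the matrix protein agrin, with 541, 580 and 1425. Those of Irf7 were Phrf1, with 334, 385 and 458 counts, and Deaf1, with 116, 130 and 176.

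Ratios were also set beside the promoter letters. The 12 members with an ISRE match had a median ratio of 4.69 to sham 1 and the 10 without had 3.95. All these members were chosen on such ratios, so nothing is read from the difference. Ifit3 and Ifit3b, whose printed stretches were identical, both count among the 12. Irf7, with the widest ratio to sham 1, was among those without a match in this window. In genes outside every interferon list, 17 of 323 with ISRE letters (5.26%) were at least 2-fold higher in sham 3, against 100 of 9585 without (1.04%). The first of the 17 was Gm12250, a further immunity-related GTPase gene, with 29, 11 and 470 counts. Ifi213 followed with 28, 18 and 183, and Trim12a had 107, 77 and 366. These 3, and also Ifi206, Ifi208, Ifi211 and Trim30d among the 17, belong to families known to be induced by interferon that the lists did not cover in full. Coro2a, Scube3, Mmp13 and Clca3a1, also among the 17, had under 10 counts in sham 1 and in sham 2. They reached the minimum of 10 counts on average only through sham 3. The 2 shares are therefore given as a description. For the GAS letters the same shares were 1.37% of 801 genes and 1.16% of those without.

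**Figure D5:**
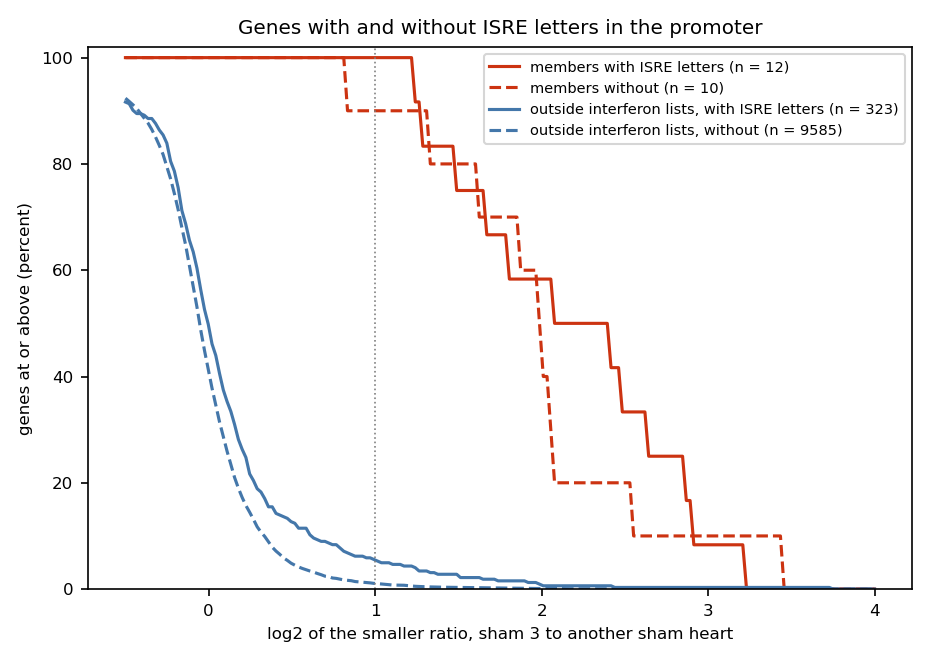
Share of genes (vertical axis, percent) whose smaller ratio of sham 3 to another sham heart is at or above the value on the horizontal log2 axis, with the dotted line at 2-fold. Outside the interferon lists the line of genes with ISRE letters lies above that without at 2-fold (5.26 against 1.04%), and the members' lines cross.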

How the data were processed

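Total RNA from heart tissue was sequenced in 3 sham and 3 kidney disease libraries. The authors deposited unnormalised counts per gene. Trimmomatic, HISAT2, HTSeq, DESeq and the build mm9 are named per the submitters' processing notes. The sources used here give neither versions nor the strand setting, so reads of overlapping genes may be mixed. The sham columns alone were used, because the gene labels of the other columns did not match their values.

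Counts were divided by column totals to CPM with Python 3.11.15, and ratios were taken between single hearts. With the outlying heart known from the data, no test was made. Intervals at 95% are exact Poisson for levels, exact conditional binomial for ratios and Clopper-Pearson for shares, computed with scipy 1.17.1. They cover counting error only. The ratio step was tested on simulated data, but the setting and outcome are not given here, so nothing is read from that check. Genes with a mean of at least 10 counts per sham heart (12616), sham 3 included, formed the background. A level of 3 counts was taken for a count of 0. Alternatives used TMM factors (edgeR 4.0.16) and size factors (DESeq2 1.42.0) in R 4.3.3, a mean of at least 100 counts, a prior count of 2, thinning to the smallest total, folds of 1.5 and 4, leaving out genes with near copies and leaving out hearts.

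The members and the gene lists were chosen with earlier results of these data known. The rule for named genes took all members found, up to 4 genes of each other list by mean CPM, and 10 genes outside the interferon lists with a mean of at least 10 CPM and the largest smaller ratio of sham 3 to the others. Not all genes of the other lists that it took are printed, and every gene named outside it was chosen after its values were seen. A result on 1 further gene is not reported here.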

Additional observations from a re-analysis of the deposited data

How the results depend on the processing

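The count of genes at least 2-fold higher in sham 3 than in each other heart (28) became 13 when 4-fold was required and 29 at 1.5-fold. It was 28 to 29 without sham 1 or sham 2, and leaving out sham 3 leaves no value. Under TMM factors, size factors, a prior count of 2 or thinning, it was 28. It was 24 of 25 with a mean of at least 100 counts, and 23 of 24 without members that may share reads with copies. The median log2 ratio ranged from 1.87 to 1.97 to sham 1 and from 2.43 to 2.56 to sham 2, and that of sham 1 to sham 2 from 0.57 to 0.71. These medians compare 2 named hearts, so no heart could be left out. The mean summed share of 0.102% lay between 0.0460% without sham 3 and 0.135% without sham 2. It was 0.0710% without the 3 most abundant members. The count of genes next to a member at least 2-fold higher in sham 3 was 5 of 48. It was 9 of 52 with listed interferon genes kept, and the share of all genes tested was 1.96%. No paired analysis was possible because the disease columns were not compared and no test between groups was made. Depth limits Cxcl10, Dhx58 and Zbp1 most, and with 3 hearts the frequency of such a state in sham mice cannot be estimated.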

Other observations

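Outside the listed interferon genes, the 10 genes that stood furthest above both other hearts in sham 3 included GTPase and globin genes. F830016B08Rik, which RefSeq also lists as the interferon-gamma-inducible GTPase gene Ifgga4, had 50, 46 and 6022 counts in sham hearts 1, 2 and 3. Gm4841, or Ifgga3, had 15, 4 and 1073. Siglec1, a sialic acid receptor of macrophages known to be induced by interferon, had 54, 58 and 376 counts. Ifi27 had 242, 172 and 1079 counts, and the very large GTPase gene Gvin2 had 57, 51 and 252. Of the globin genes, Hbb-bs had 709, 522 and 3773 counts, Hbb-bt 65, 60 and 555, Hba-a1 233, 178 and 1083, and Hba-a2 113, 65 and 508. Gm12250, described above, was also among the 10. The minimum mean of 10 CPM for these genes included sham 3. F830016B08Rik, Gm4841, Gm12250, Hbb-bt, Siglec1 and Gvin2 were under 10 CPM in both sham 1 and sham 2, and passed it only through sham 3. So did Hba-a2, with 10.8 and 6.21 CPM in sham 1 and sham 2.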
